A study of Mus musculus with 9 samples.

Results

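Newborn cardiomyocytes from pups of mothers on a normal diet are described here on their own, with no comparison between diets. They are 3 of the 9 RNA-seq libraries of the series and were chosen by their labels: the libraries titled ND, replicates 1 to 3. The pups were wild-type C57BL/6J mice, their mothers ate the normal diet from fertilization until birth, and cells were taken from the heart at postnatal day 0 (P0). RNA was extracted with Magzol and mRNA was selected before library construction. The other 6 libraries come from mothers on high-fat diets. The labels give no number of pups or litters, no pooling, no sex and no isolation steps, so the spread between the 3 libraries may be technical or biological.

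A newborn mouse heart muscle cell is in transition. Before birth the heart beats in low oxygen, burns mainly glucose and lactate, grows by cell division and uses fetal forms of several contractile proteins. After birth, milk fat and oxygen become plentiful, mitochondria take up fatty acid oxidation, adult protein isoforms replace fetal ones and most myocytes leave the cell cycle within days. Many of these switches are between paralogues, related genes that encode the same kind of protein, so the share of the earlier form in the sum of both can be read from gene-level data.

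Values are TPM, a level of transcripts per transcript length and relative to the library total. The table lists 18738 genes, all of the mRNA type and with 0 mitochondrially encoded genes, and 17105, 16927 and 16925 of them were above 0 in replicates 1, 2 and 3. Read depth is unknown, because TPM does not keep it. Replicates 2 and 3 were nearest to each other, with a Pearson correlation across genes of 0.989 in log2(TPM + 1), against 0.986 for 1 and 3 and 0.976 for 1 and 2. Among the 13762 genes averaging 1 TPM or more, 1675 (12.2%) spanned at least 2-fold over the 3 libraries. The highest value fell in replicate 1 for 34.3% of genes, in replicate 2 for 49.3% and in replicate 3 for 16.3%. This split depends on scaling: with libraries brought to a common median ratio, 38.1%, 36.8% and 25.1% of genes were highest in replicates 1, 2 and 3. Deviations of the libraries also went with base composition: across 13371 genes with a known transcript, the log2 deviation had a Spearman correlation with GC content of 0.18, -0.36 and 0.23 in replicates 1, 2 and 3, and with a trend in length and GC content removed 37.1% were highest in replicate 2. Replicate 2 had 0.09 as its median deviation from the mean of each gene on the log2 scale, against -0.04 and -0.06 in replicates 1 and 3. Transcripts of the Y-linked gene Ddx3y were 43.9, 48.5 and 33.8 TPM.

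The most abundant transcripts were those of the contractile apparatus, of translation and of matrix and blood. Eef1a1, the elongation factor that brings tRNA to the ribosome, led with 11103, 9572 and 11314 TPM (mean 10663 ± 951, SD, n = 3). Nppa, the atrial natriuretic peptide hormone, was the second with 7291, 9232 and 9528 TPM, followed by cardiac actin Actc1 with 6032, 10790 and 7573 TPM. The range of Actc1 overlapped those of both other genes, and only 3 of the 19 neighbours in the order of the top 20 kept that order in each library. Genes such as Eef1a1, Gapdh and Tpt1 have many processed pseudogenes, and reads could have been split between copies, so their levels are uncertain.

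Contractile genes held 6 of the 20 first places: Actc1, Myh6, Tnnt2, Myl2, Tpm1 and Myl7. Myh6, the fast alpha-myosin heavy chain, reached 5782, 7800 and 5329 TPM, and Tnnt2, the troponin subunit that anchors the complex to tropomyosin, 4226, 6275 and 5440 TPM. Genes not of muscle cells stood among them too. Sparc, Eln and Col3a1, which encode matrix proteins, and Vim, an intermediate filament of mesenchymal cells, had means of 4121, 4034, 2985 and 3615 TPM. Fabp4, a fatty acid binding protein of capillary endothelium and fat cells, was 5373, 2879 and 5970 TPM, lowest in replicate 2. Hba-a2 and Hbb-bs, the adult globins of red cells, had means of 4131 and 3975 TPM.

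**Figure D1:**
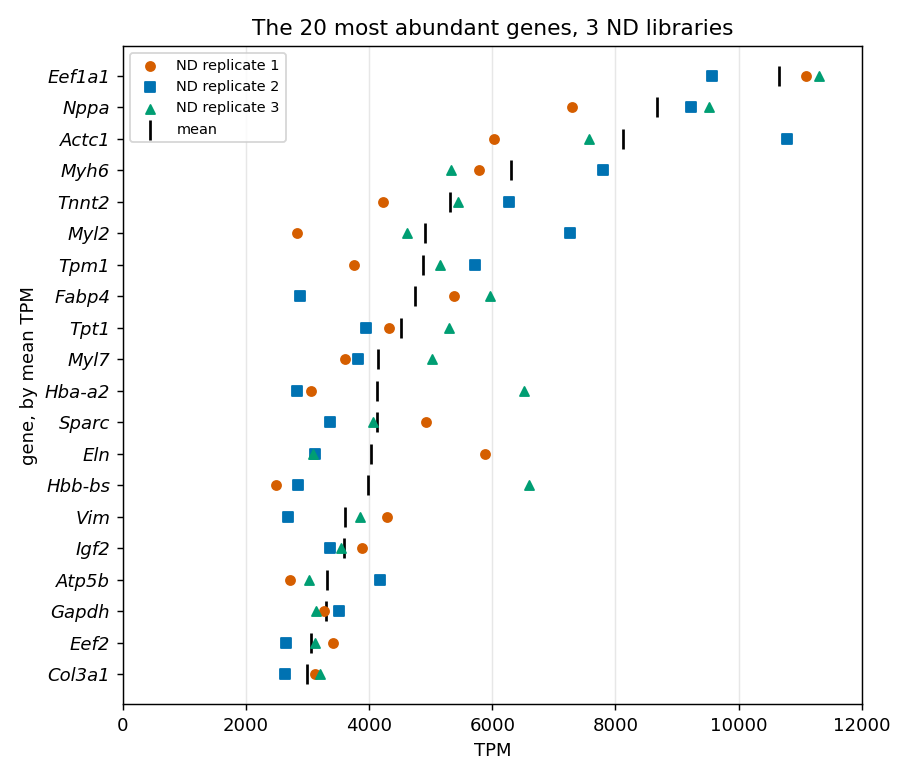
The 20 genes with the highest mean TPM, in order (vertical axis), and their TPM (horizontal axis) in each of the 3 ND libraries, with the mean as a vertical tick. Actc1 (6032 to 10790 TPM), Myh6, Tnnt2, Myl2 and Tpm1 lie furthest right in replicate 2, and Myl7 and the globins Hba-a2 and Hbb-bs in replicate 3.

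No small set of genes dominated. The 20 most abundant genes held 9.84% ± 0.70 of the total (SD, n = 3), the first 100 held 23.6% and the first 1000 held 57.0%. A mean of at least 10 TPM was reached by 9778 genes, of at least 100 TPM by 1903 and of at least 1000 TPM by 127, while 760 genes were listed at 0 in each library.

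The thick filament, the myosin rod with its light chains and binding proteins, summed to 17703, 27056 and 21308 TPM over 13 genes. The thin filament, actin with tropomyosin and troponin, summed to 18235, 29707 and 23846 TPM over 10 genes. Together they were 3.59%, 5.68% and 4.52% of all transcripts, with replicate 2 highest and replicate 1 lowest. Within the pair of lists the thick filament share was 49.3%, 47.7% and 47.2%, so the balance of both filaments moved far less than their sum. Of these genes, 9 of 13 and 8 of 10 were highest in replicate 2, against 49.3% of all genes. In bulk samples a larger number of myocytes and more RNA per myocyte cannot be told apart.

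The stretch just before the start of 4 filament genes is shown because each holds a CArG box, the letters bound by serum response factor, which drives actin and other muscle genes. The sequences are RefSeq's for GRCm38.p6, 5′ to 3′ on the strand of the gene, the 100 bases before the listed start, with the CArG box in capitals. They lie at chr2:114052876-114052975, minus strand, chr8:123894776-123894875, minus strand, chr11:5898783-5898882, minus strand, and chr9:110763578-110763677, plus strand.
Actc1: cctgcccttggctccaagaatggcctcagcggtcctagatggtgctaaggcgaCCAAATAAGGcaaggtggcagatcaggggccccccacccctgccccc
Acta1: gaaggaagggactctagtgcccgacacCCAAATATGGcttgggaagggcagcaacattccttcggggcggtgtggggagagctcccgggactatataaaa
Myl7: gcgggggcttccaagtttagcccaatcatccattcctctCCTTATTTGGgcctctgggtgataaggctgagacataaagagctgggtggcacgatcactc
Myl3: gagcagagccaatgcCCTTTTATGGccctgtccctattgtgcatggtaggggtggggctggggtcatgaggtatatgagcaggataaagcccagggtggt
On both strands of the 250 bases before the start, 131 of 10950 promoters of genes averaging 1 TPM or more held a CArG box (1.20%), against 3 of 12 of the thick filament list (Myl3, Myl7 and Myom1) and 2 of 10 of the thin filament list (Actc1 and Acta1). No other motif searched overlapped these boxes in the 4 genes. Acta1 and Actc1 both carry the box, yet Acta1, the skeletal actin that also marks the fetal rodent heart, was only 31.6, 23.7 and 24.9 TPM beside the 6032, 10790 and 7573 TPM of Actc1. Such a match is a description of letters and not of binding.

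The myosin heavy chain was mostly of the adult type, and the light chains were mixed. Myh7, the slow beta-myosin of the fetal ventricle, was 507, 193 and 213 TPM beside Myh6, its neighbour on chromosome 14 (chr14:54970684-54994626 and chr14:54941921-54968017, RefSeq, GRCm38.p6). Its share of both was 8.06%, 2.41% and 3.85%, highest in replicate 1. Light chains were near balance instead: Myl7, the atrial regulatory light chain, was 3602, 3818 and 5026 TPM, and Myl2, its ventricular counterpart, 2830, 7262 and 4608 TPM. The share of Myl7 was 56.0%, 34.5% and 52.2%, so which chain was higher depended on the library. Myl4, the atrial and fetal essential light chain, likewise took 56.7%, 38.8% and 55.4% of its sum with Myl3, the ventricular one. Myl7 and Myl4 differed little between libraries (log2 range 0.48 and 0.34), while Myl2 and Myl3 spanned 1.36 and 1.15, both highest in replicate 2.

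Troponin I was mixed, with a fetal share that differed little between libraries. Tnni1, slow skeletal troponin I, which the fetal heart uses, was 875, 1427 and 1098 TPM, and Tnni3, the adult cardiac form, 1541, 2477 and 2185 TPM. The fetal share was 36.2%, 36.5% and 33.4% (mean 35.4% ± 1.71, SD, n = 3). Both genes followed the filaments upward in replicate 2, which left their ratio almost in place.

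The other sarcomere pairs were settled on the cardiac form in every library. Tnnt1, slow skeletal troponin T, was 1.70% ± 0.24 of its sum with Tnnt2, and Tpm2 was 2.83% ± 0.48 of its sum with Tpm1. Mybpc1, the slow skeletal binding protein C, was 0.018% ± 0.010 of its sum with cardiac Mybpc3. Acta2, the smooth muscle actin that early cardiomyocytes also express, was 7.55% ± 1.51 of its sum with Actc1, though mural cells of vessels express it too. The 43 pairs set a fetal, atrial, skeletal or general form first and mostly an adult, ventricular or cardiac form second. Not each pair is thus a fetal-to-adult switch. The second form was higher in each library in 31 pairs and the first in 9. The order differed between libraries in 3, namely Myl7/Myl2, Myl4/Myl3 and Eno1/Eno3. The share of the first form was under 10% in each library in 14 pairs, among them the skeletal forms Tnnt1, Mybpc1 and Atp2a1.

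**Figure D2:**
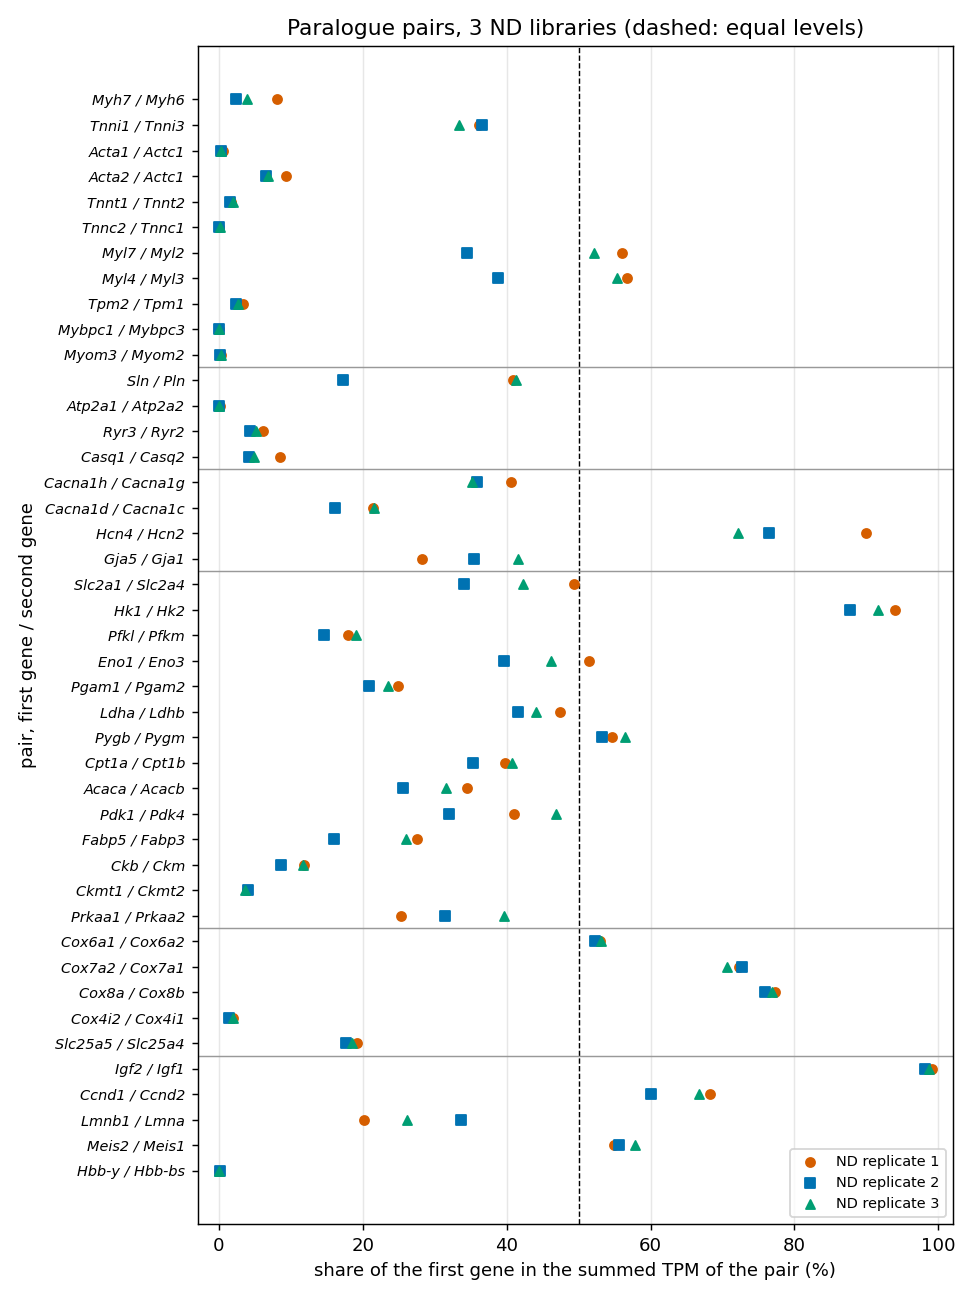
Share of the first gene in the summed TPM of 43 pairs (horizontal axis, percent), 1 point per ND library, with lines between sarcomere, calcium, channel, fuel, mitochondrial and growth pairs. The first gene is a fetal, atrial, skeletal or general form, and the second mostly an adult, ventricular, cardiac or muscle form. Points left of the dashed line have more of the second gene; replicate 2 lies lowest for 32 of the 43 pairs.

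Replicate 2 had the lowest share of the first form in 32 of the 43 pairs, replicate 1 in 5 and replicate 3 in 6. Replicate 2 was the lowest in 9 of 11 sarcomere pairs, 4 of 4 calcium pairs, 12 of 14 fuel pairs and 4 of 5 mitochondrial pairs, but in 1 of 4 channel pairs and 2 of 5 growth pairs. Multiplying a library by a factor leaves such a share as it is. A trend with transcript length or GC content need not cancel within a pair, and the shares were not recomputed with that trend removed. Filament genes were also highest in replicate 2, and blood endothelium markers lowest there (11185, 6731 and 10835 TPM); the part of cell mixture in these shares was not tested.

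Calcium handling genes, which release calcium for each beat and pump it back, were already abundant at birth. Atp2a2, the cardiac calcium pump, was 2237, 3981 and 2512 TPM, and its skeletal paralogue Atp2a1 took 0.088% ± 0.052 of the sum. Ryr2, the calcium release channel, was 94.5, 176 and 78.8 TPM, with Ryr3 at 5.18% ± 0.85 of both. Casq2, the cardiac calcium store protein, was 359, 803 and 482 TPM.

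The brakes on the pump were unequal. Pln, phospholamban, the brake of ventricle, was 530, 1975 and 839 TPM, while Sln, sarcolipin, the brake of atrium, was 367, 412 and 591 TPM. Sln was therefore 40.9%, 17.3% and 41.3% of both. Of the 14 calcium handling genes, 7 spanned at least 2-fold, against 12.2% of all genes, and 11 were highest in replicate 2, against 49.3%. With a trend in transcript length and GC content removed, 3 of 14 spanned 2-fold, beside 1200 of 13371 genes.

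Ventricular genes were uneven between libraries and atrial genes less so. The list of ventricular genes summed to 6018, 14193 and 8542 TPM, and 8 of its 10 members spanned at least 2-fold, against 12.2% of all genes. Hey2 and Irx4, transcription factors of the ventricle, were 11.7, 37.6 and 19.1 TPM and 14.3, 31.1 and 18.1 TPM. Myh7, the exception, was highest in replicate 1. The list of atrial genes, which includes Nppa, Myl7 and Myl4, summed to 15701, 19085 and 20385 TPM. Of its 15 members, 3 spanned 2-fold, beside the same 12.2% of all genes. Per filament transcript the atrial sum was 43.7%, 33.6% and 45.1%, lowest in replicate 2.

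Natriuretic peptides were unequal. Nppa and Nppb lie next to each other on chromosome 4, yet Nppb, the peptide of the stretched ventricle, was 79.1, 40.1 and 98.4 TPM against 7291, 9232 and 9528 TPM of Nppa. Corin, the protease that activates the atrial peptide, was 48.6, 93.2 and 62.8 TPM.

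The 9 conduction system genes had a median of 8.49 TPM. Of the 7 averaging 1 TPM or more, 1, Hcn4, spanned 2-fold, beside 12.2% of all genes. The 19 channel and connexin genes had a median of 34.4 TPM. The median over all 18738 genes, low ones included, was 11.57 TPM. Hcn4, the pacemaker channel, was 13.9, 7.61 and 4.40 TPM, 79.5% ± 9.26 of its sum with Hcn2, and Tbx3, the transcription factor of the nodes, 33.0, 21.4 and 22.9 TPM. Gap junctions join myocytes electrically, and Gja1, the ventricular connexin, was 102, 295 and 145 TPM while Gja5, of atrium and conduction fibres, was 40.1, 162 and 103 TPM. Of 18 channel and connexin genes averaging 1 TPM or more, 16 were highest in replicate 2, against 49.3% of all genes. Under the other scalings 14 or 15 were, against 36.5% to 37.1%. Of the 18, 8 spanned 2-fold, against 12.2% of all genes.

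Cardiac transcription factors differed among themselves in spread. Gata4, a zinc finger activator of the cardiac programme, was 145, 169 and 145 TPM, Nkx2-5, the cardiac homeobox factor, 99.8, 118 and 93.0 TPM, and Srf, which binds the CArG box, 99.6, 85.9 and 93.2 TPM. These 3 spanned a log2 range of at most 0.34, but the median of the list was 0.59, against 0.51 of all genes. In all, 4 of 18 spanned 2-fold, against 12.2% of all genes, with Hey2 the widest at 1.60. Under the other scalings 2 or 3 of 18 did, beside 1200 to 1515 genes in all. Tbx20, a T-box factor, was the highest of the list with 165, 305 and 188 TPM. Hand1, a factor of the early left ventricle, was below 1 TPM on average.

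Glucose metabolism was carried by a mixture of general and muscle enzymes. Hk1, the hexokinase of fetal heart, was 135, 182 and 135 TPM against 8.55, 25.5 and 12.5 TPM of Hk2, the insulin-responsive adult form, and held 94.1%, 87.7% and 91.6% of both. Slc2a1, the insulin-independent glucose transporter, was 25.7, 29.7 and 29.0 TPM and Slc2a4, the insulin-responsive transporter, 26.4, 57.5 and 39.6 TPM. The share of Slc2a1 was 49.3%, 34.1% and 42.3%, and Slc2a4 spanned a log2 range of 1.09 between libraries against 0.20 for Slc2a1.

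Downstream enzymes were more on the muscle side. Pfkm, muscle phosphofructokinase, exceeded Pfkl, which took 17.2% ± 2.25 of both, and Pgam2 exceeded Pgam1 (23.1% ± 2.05). Enolase was in balance: Eno1 took 51.5%, 39.6% and 46.2% of its sum with Eno3. The list of 22 glycolysis genes summed to 8094, 9873 and 8321 TPM, and 2 of 22 spanned 2-fold, beside 12.2% of all genes. Of the 22, 19 were highest in replicate 2, against 49.3% of all genes (14 with median-ratio scaling, against 36.8%).

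Lactate and pyruvate genes favoured the heart form slightly. Ldhb, the lactate dehydrogenase subunit of heart, was 645, 1038 and 767 TPM and Ldha, the subunit of glycolytic tissue, 583, 738 and 603 TPM, which gave Ldha 47.5%, 41.6% and 44.0%. Pdk4, the kinase that shuts pyruvate out of mitochondria when fat is burned, was 82.9, 172 and 67.5 TPM and Pdk1, its relative induced by low oxygen, 57.8, 81.2 and 59.6 TPM. Slc16a1, the main lactate importer, was 48.3, 93.7 and 51.9 TPM. For glycogen, the store of the newborn heart, Pygb, the brain and fetal phosphorylase, held 54.7%, 53.3% and 56.4% of its sum with muscle Pygm.

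Fatty acid uptake genes were abundant, but part of them belongs to vessels. Fabp3, the fatty acid carrier of heart muscle, was 1210, 2958 and 2064 TPM, highest in replicate 2. Fabp4 and Gpihbp1, the lipase anchor of capillaries (475, 267 and 543 TPM), were lowest in that library. Cd36, the fatty acid translocase present in both cell types, was 1845, 1382 and 1554 TPM.

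The entry of fatty acids into mitochondria was shared between the liver and the muscle form of carnitine palmitoyltransferase. Cpt1a, the liver form that the fetal heart also uses, was 96.6, 156 and 111 TPM and Cpt1b, the muscle form, 147, 285 and 161 TPM. Cpt1a thus held 39.7%, 35.3% and 40.8% of both (mean 38.6% ± 2.92). Mlycd, which removes the inhibitor malonyl-CoA, was 39.4, 96.1 and 62.9 TPM.

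Beta-oxidation, the stepwise shortening of fatty acids, was uniform in its pattern. Its 16 genes summed to 3744, 7039 and 4836 TPM, and each of the 16 was highest in replicate 2 and lowest in replicate 1 (15 of 16 highest in replicate 2 with median-ratio scaling). Of all genes, 49.3% were highest in replicate 2, or 36.8% with median-ratio scaling, and 5834 of 13762 were lowest in replicate 1. Hadha, the trifunctional protein alpha subunit, was 372, 838 and 474 TPM and Acadl, the long-chain dehydrogenase, 467, 890 and 563 TPM. In all, 6 of the 16 spanned 2-fold, against 12.2% of all genes. Once the trend in length and GC content was removed, 2 of the 16 did, beside 1200 of 13371 genes. Per filament transcript the sum was 10.4%, 12.4% and 10.7%, a narrower spread. Set against glycolysis, the ratio of both sums was 0.463, 0.713 and 0.581.

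The citric acid cycle followed the same order, with 5899, 9964 and 7148 TPM over 18 genes. Each was highest in replicate 2 under each scaling, against 36.5% to 49.3% of all genes. Idh2, mitochondrial isocitrate dehydrogenase, was 908, 1458 and 1079 TPM. Oxct1, the enzyme by which heart burns ketone bodies, was 74.1, 116 and 75.1 TPM, whereas Bdh1, which oxidizes hydroxybutyrate, was 1.25, 1.21 and 0.88 TPM.

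Nuclear genes of the respiratory chain and ATP synthase were abundant, and few spanned 2-fold. The 36 genes of complex I summed to 7890, 11239 and 10058 TPM. Of complex I, complexes III and IV, and ATP synthase with its nucleotide carriers, 0 of 36, 1 of 24 and 0 of 21 genes spanned 2-fold, against 12.2% of all genes; the exception was Cycs, cytochrome c, with 112, 266 and 180 TPM. Their median log2 ranges, 0.56, 0.40 and 0.53, lay near the 0.51 of all genes. In complex I, replicate 2 was highest for 25 genes and replicate 3 for 11, but for 16 and 20 with median-ratio scaling, and replicate 1 was lowest for 35. Of all genes, 49.3% and 16.3% were highest in replicates 2 and 3 (36.8% and 25.1% with median-ratio scaling). In replicate 1, 5834 of 13762 genes were lowest. Atp5b, the catalytic subunit of ATP synthase, was 2720, 4180 and 3024 TPM. Per filament transcript complex I was 22.0%, 19.8% and 22.3%.

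Cytochrome oxidase subunits were mostly of the liver type or level with it. Cox7a2, the liver-type subunit, held 72.4%, 72.7% and 70.6% of its sum with heart-type Cox7a1, and Cox8a held 77.3%, 76.0% and 76.9% of its sum with Cox8b. Cox6a1 and Cox6a2 were level, with 53.0%, 52.2% and 53.1% for the liver type. These shares differed little between libraries, with SDs of 1.12, 0.70 and 0.47 percentage points. Cells other than muscle express mainly the liver types, and their part in these shares was not tested.

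Regulators of this metabolism varied between libraries, around a median of 24.2 TPM. Ppara, the nuclear receptor that switches on fat oxidation, was 2.30, 7.42 and 4.37 TPM, and Ppargc1a, the coactivator of mitochondrial biogenesis, 20.7, 36.8 and 15.0 TPM. Perm1, a muscle regulator of the same genes, was 10.3, 38.7 and 17.5 TPM. Of 15 regulators, 8 spanned 2-fold, against 12.2% of all genes, and 11 were highest in replicate 2, against 49.3%. Hif1a, the factor of the low-oxygen response, was the most abundant with 130, 147 and 91.0 TPM. Mb, myoglobin, the oxygen store of muscle, was 965, 2313 and 1497 TPM, and Ucp3, an uncoupling protein of muscle fed on fat, 1.28, 16.0 and 4.88 TPM, while Ucp1 of brown fat was below 1 TPM in each library.

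Proliferation genes were present at moderate levels. The list of replication genes summed to 836, 1256 and 1010 TPM over 34 genes and the list of mitosis genes to 1031, 1037 and 836 TPM over 38 genes, and each of these genes averaged 1 TPM or more. Pcna, the sliding clamp of DNA polymerase, was 131, 189 and 162 TPM. Mki67, the usual marker of cycling cells, was 58.8, 57.4 and 37.0 TPM, and Ccnb1, the cyclin of mitotic entry, 29.8, 25.9 and 19.9 TPM. Which cells of the isolate were dividing cannot be read from bulk RNA.

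The phases did not move together. Replication genes were highest in replicate 2 for 29 of 34 (22 to 27 under the other scalings). Mitosis genes were divided, 19 highest in replicate 1 and 18 in replicate 2 (20 to 23 and 13 to 16 under the other scalings). Of all genes, 34.3% and 49.3% were highest in replicates 1 and 2 (37.8% to 39.8% and 36.5% to 37.1% under the other scalings). For replicate 2 the mitosis share, 47.4%, thus lay near that of all genes. In replicate 3, 25 of 38 mitosis genes were lowest, beside 4654 of 13762 genes. The ratio of mitosis to replication sums was 1.23, 0.825 and 0.828. Of the 38 mitosis genes 1, Nek2, spanned 2-fold (19.2, 9.49 and 8.86 TPM), beside 12.2% of all genes. Top2a, which untangles chromosomes, was 37.3, 75.6 and 46.1 TPM, close to 2-fold.

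Promoters of mitosis genes shared the CCAAT box, the letters CCAAT, bound by the factor NF-Y that acts on many genes of late cell cycle. The window before the start held it on either strand in 26 of 32 mitosis genes with a RefSeq promoter (81.2%), in 17 of 28 replication genes (60.7%) and in 4006 of 10950 genes in all (36.6%). The E2F box, searched as TTTCCCGC or TTTGGCGC on both strands, was in 5 of 28 replication promoters, 0 of 32 mitosis promoters and 2.47% of all. The 120 bases before the start of Top2a (chr11:99024190-99024309, minus strand) and Ccnb1 (chr13:100786487-100786606, minus strand) are shown for the spacing of the boxes, with CCAAT or its reverse complement ATTGG in capitals; no other motif searched overlapped a box.
Top2a: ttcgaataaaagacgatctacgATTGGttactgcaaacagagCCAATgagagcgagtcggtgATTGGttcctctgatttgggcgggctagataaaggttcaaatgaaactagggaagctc
Ccnb1: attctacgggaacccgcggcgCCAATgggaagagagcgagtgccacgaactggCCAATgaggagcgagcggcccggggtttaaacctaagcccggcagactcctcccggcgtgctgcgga

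G1 genes and brakes of the cycle were expressed side by side. Ccnd1 and Ccnd2, D-type cyclins, were 101, 186 and 148 TPM and 46.8, 123 and 73.4 TPM, with Ccnd3 above both at 255, 210 and 242 TPM. Cdkn1c, the imprinted inhibitor of fetal growth, was steady at 176, 173 and 224 TPM, and Cdkn1b at 89.6, 96.7 and 78.3 TPM. Cdkn1a, the inhibitor induced by p53 and by stress, was instead 454, 54.6 and 142 TPM. Cdkn2a, a marker of senescence, was at 0, 0 and 0.67 TPM. Meis1, a factor tied to cell-cycle exit of newborn myocytes, was 21.2, 31.9 and 22.2 TPM, with Meis2 slightly above it.

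Fetal growth factors were dominated by Igf2, the imprinted insulin-like growth factor. It reached 3892, 3360 and 3539 TPM (mean 3597 ± 270, SD, n = 3) and held 98.7% ± 0.43 of its sum with Igf1, the postnatal form. Dlk1, another imprinted growth regulator, was 376, 219 and 263 TPM. Lin28b and Hmga2, genes of early embryonic growth, were 1.50, 1.37 and 0.89 TPM and 2.46, 4.06 and 2.73 TPM. Erbb2 and Erbb4, receptors for the myocyte mitogen neuregulin, were 25.7, 30.2 and 25.9 TPM and 6.66, 12.4 and 5.92 TPM.

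The libraries are labelled cardiomyocytes and each expressed the 10 defining myocyte markers, of which titin, Ttn, was the lowest with 49.1, 85.0 and 32.5 TPM. Markers of other heart cells were also high. Fibroblast markers, 12 of 12 averaging 1 TPM or more, summed to 11980, 9697 and 11784 TPM. The largest were the collagen genes Col3a1 (3123, 2638 and 3194 TPM) and Col1a1 (2570, 1456 and 1872 TPM), and Pdgfra and Tcf21, receptor and factor of the lineage, were 49.3, 71.0 and 72.4 TPM and 65.2, 65.5 and 89.2 TPM. All 44 collagen chain genes together were 1.76%, 1.23% and 1.47% of the total, next to 3.59%, 5.68% and 4.52% for the filaments.

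Blood endothelium markers, again 12 of 12, summed to 11185, 6731 and 10835 TPM, of which Fabp4 was the largest. Pecam1, an adhesion protein of endothelium, was 947, 587 and 755 TPM and Cdh5, its cadherin, 1086, 597 and 762 TPM, both lowest in replicate 2. Kdr and Tek, receptors for vascular growth factors, differed far less (327, 317 and 310 TPM, and 237, 222 and 205 TPM). Per filament transcript the endothelial list was 31.1%, 11.9% and 24.0% and the fibroblast list 33.3%, 17.1% and 26.1%.

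Other cell types were present at lower sums. Pericyte markers summed to 570, 669 and 577 TPM, smooth muscle markers to 1164, 1218 and 1012 TPM and epicardium markers to 377, 419 and 340 TPM, with Wt1, the epicardial factor, at 47.6, 33.1 and 28.6 TPM. Macrophage markers summed to 523, 478 and 689 TPM. Of these 12 markers, 7 were highest in replicate 3, against 16.3% of all genes (11 of 12 under each other scaling, against 23.1% to 25.7%). Lymphocyte markers summed to 11.1, 10.4 and 15.4 TPM over 11 genes, of which 3 averaged 1 TPM or more. Of skeletal muscle genes, the factor Myog was at 0, 0.45 and 0.31 TPM, and Ckm, the creatine kinase that heart also uses, made up nearly all of the list with 1122, 1515 and 1216 of 1171, 1557 and 1260 TPM. The defining liver gene Afp and brown fat gene Ucp1 were below 1 TPM in each library. Other members of these lists were not: 3 of 6 liver genes averaged 1 TPM or more, with Trf highest at 79.2, 68.0 and 89.0 TPM. Of 8 thymus and brown fat genes 3 did, with Cidea highest at 14.8, 24.9 and 18.2 TPM.

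**Figure D3:**
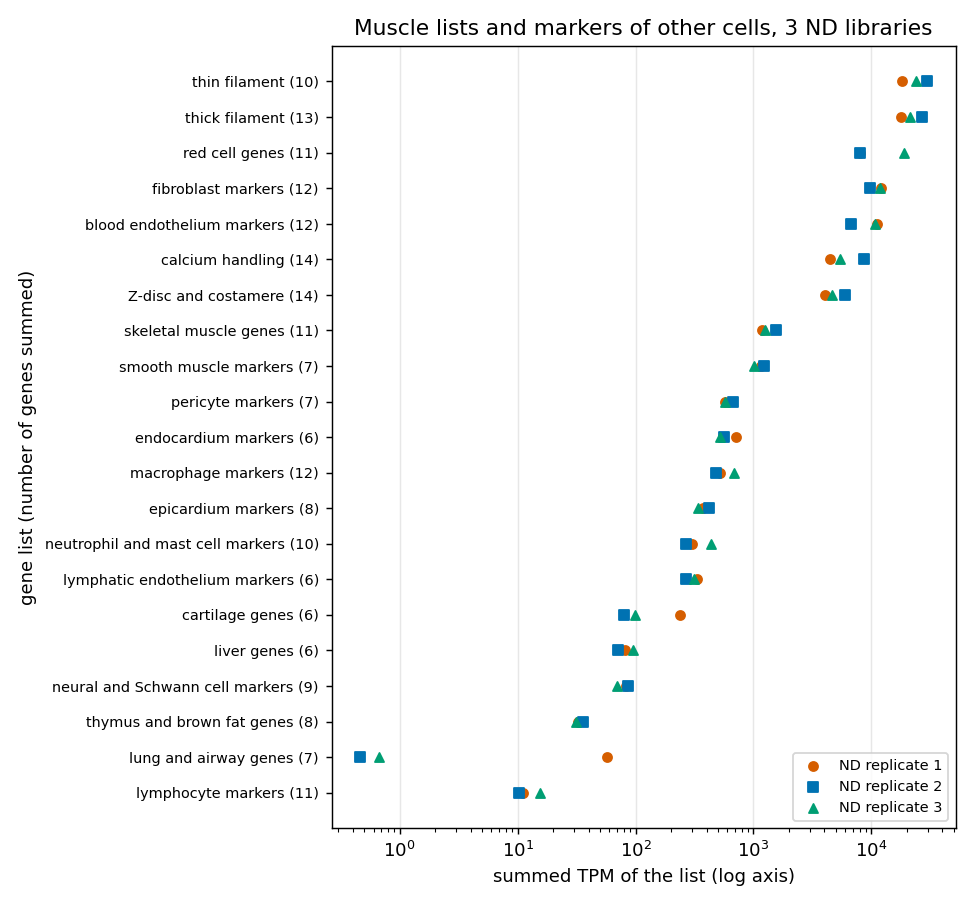
Summed TPM (horizontal log axis) of 4 muscle lists and of marker lists for other cells (vertical axis, with the number of genes summed), 1 point per ND library. The thin and thick filament lists lie highest in each library; red cell genes reach 18767 TPM in replicate 3, and lung and airway genes lie at 56.9 TPM in replicate 1 and below 1 TPM in the other two.

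Blood content differed. Red cell genes summed to 8060, 8051 and 18767 TPM, and all 8 members averaging 1 TPM or more were highest in replicate 3, against 16.3% of all genes and under each scaling. Hbb-bs was 2483, 2847 and 6594 TPM, and Alas2, the first enzyme of haem synthesis in red cells, 52.4, 68.7 and 110 TPM. Hbb-y, the embryonic beta-like globin, was 0.056% ± 0.019 of its sum with Hbb-bs. Hba-a1 and Hba-a2, like Hbb-bs and Hbb-bt, are near-identical copies, so the level of each is uncertain. Neutrophil genes were highest in the same library: S100a8 and S100a9 were 63.7, 42.9 and 135 TPM and 54.7, 43.1 and 131 TPM, and the mast cell proteases Cma1 and Tpsb2 were not (34.0, 38.2 and 27.9 TPM, and 47.9, 42.0 and 29.3 TPM).

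Spread between libraries was not even over genes. The share of genes that spanned 2-fold was 18.2% for means of 1 to 10 TPM, 10.4% for 10 to 100 TPM, 6.87% for 100 to 1000 TPM and 8.66% above, and the median coefficient of variation was 20.3%. Replicate 1 stood at least 2-fold above both others for 159 genes and below both for 102, replicate 2 for 140 and 82, and replicate 3 for 27 and 16.

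**Figure D4:**
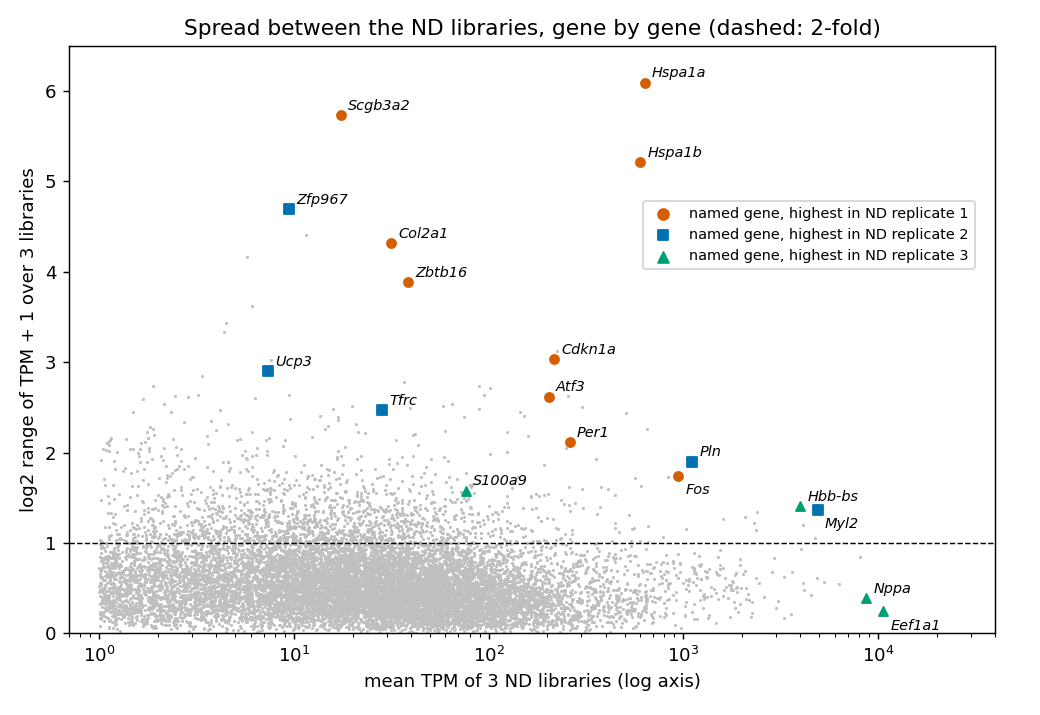
Log2 range of TPM + 1 over the 3 ND libraries (vertical axis) against mean TPM (horizontal log axis) for 13762 genes (grey), with a dashed line at 2-fold and named genes coloured by the library in which they were highest. The widest ranges belong to Hspa1a (6.09), Scgb3a2 (5.73) and Hspa1b (5.21), all highest in replicate 1.

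The widest range belonged to inducible heat-shock genes. Hspa1a, a chaperone made within minutes of protein damage, was 1633, 22.9 and 244 TPM and its copy Hspa1b 1527, 40.2 and 229 TPM. Hsph1, a cochaperone, was 86.7, 17.1 and 14.5 TPM, and Hspb1, a small heat-shock protein, 846, 340 and 393 TPM. Constitutive members were nearer: Hspa8 was 2222, 1569 and 1795 TPM, and Cryab, the crystallin of the Z-disc, 582, 681 and 576 TPM. In all, 9 of 14 were highest in replicate 1, against 34.3% of all genes, and 6 of 14 spanned 2-fold, against 12.2%.

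The 120 bases before the start of Hspa1a (chr17:34972157-34972276, minus strand) and Hspa1b (chr17:34959239-34959358, minus strand) show how alike the copies are and hold a heat-shock element, searched as GAANNTTC on both strands and set in capitals.
Hspa1a: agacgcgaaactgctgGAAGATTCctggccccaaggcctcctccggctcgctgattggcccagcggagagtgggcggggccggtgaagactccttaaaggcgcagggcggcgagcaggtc
Hspa1b: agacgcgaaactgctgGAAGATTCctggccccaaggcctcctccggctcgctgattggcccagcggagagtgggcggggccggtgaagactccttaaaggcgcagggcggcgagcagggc
They are the same at 119 of 120 bases, and reads of the copies could have been split, so each level is uncertain. The element was in 5 of 11 promoters of the heat-shock list (45.5%) and in 5.01% of all promoters, and no other motif searched overlapped it here.

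Immediate-early genes, transcribed within minutes of a stimulus without new protein, were uneven as a list. They summed to 9589, 2822 and 6314 TPM, and 18 of 20 members averaging 1 TPM or more spanned 2-fold, against 12.2% of all genes. Of the 20, 19 were highest in replicate 1, against 34.3% of all genes. In replicate 2, 20 of 20 were lowest, against 3240 of 13762 genes. Fos, a subunit of the AP-1 factor, was 1388, 413 and 1030 TPM, Egr1, a zinc finger factor, 1230, 371 and 890 TPM, and Atf3, a stress-induced repressor, 362, 58.2 and 192 TPM. The libraries were thus ordered 1, 3, 2 in these genes, and the summed level per filament transcript was 26.7%, 4.97% and 14.0%.

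Genes of inflammation and of hormone and clock response had a like order. Of 12 inflammatory genes, 9 spanned 2-fold, against 12.2% of all genes, and 9 were highest in replicate 1, against 34.3%. Cxcl1, a neutrophil attractant, was 64.1, 8.46 and 37.2 TPM and Il6, a cytokine, 18.7, 2.16 and 7.47 TPM. Il1b, an interleukin of myeloid cells, was instead highest in replicate 3 (11.7, 14.8 and 40.3 TPM), as were S100a8 and S100a9. Among 18 glucocorticoid-responsive and clock genes, 14 were highest in replicate 1 and 11 spanned 2-fold, beside 34.3% and 12.2% of all genes. Zbtb16, a factor strongly induced by steroid, was 88.5, 5.05 and 22.4 TPM, and Per1, a clock gene that steroid also induces, 503, 116 and 164 TPM. Clock and Arntl, which drive the clock, spanned log2 ranges of 0.57 and 0.25.

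Some genes of replicate 1 belong to tissue outside the heart muscle. Scgb3a2 and Scgb3a1, secretoglobins of airway cells, were 52.2, 0 and 0 TPM and 32.4, 0.57 and 1.79 TPM, and Reg3g, an antimicrobial lectin of epithelium, 17.0, 0.22 and 0 TPM. Sftpc, the surfactant gene that defines alveolar cells, was listed at 0 in each library. Col2a1 and Col9a1, cartilage collagens, were 84.9, 3.31 and 6.16 TPM and 46.7, 13.4 and 23.2 TPM. All 5 cartilage genes averaging 1 TPM or more were highest in replicate 1, against 34.3% of all genes. Eln, elastin of great vessels and valves, was also highest there with 5884, 3128 and 3089 TPM. The part of other tissue in the further differences of replicate 1 was not tested.

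Replicate 2 was set apart upward by Tfrc, the transferrin receptor for iron uptake (9.96, 59.7 and 15.3 TPM) and by Ucp3 (1.28, 16.0 and 4.88 TPM). It stood lowest in Irf1, an interferon response factor (176, 26.0 and 104 TPM). Zfp967, a zinc finger gene, was 0, 24.8 and 3.64 TPM, and belongs to a family of similar sequences, so it is uncertain.

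Replicate 3 had fewer genes 2-fold apart from both others, and ribosomal protein genes were high in it. Ribosomal protein genes summed to 54185, 41763 and 60629 TPM, and 41 of 42 were highest in replicate 3, against 16.3% of all genes. With quantile normalization 31 of 42 were, against 25.7%, and with the trend in length and GC content removed 32 of 42, against 23.1%. In TPM 0 of the 42 spanned 2-fold, against 12.2% of all genes. The median transcript length of the ribosomal protein genes was 791 bases, against 2184.5 over all genes with a length. Across 13371 genes the deviation of replicate 3 had a Spearman correlation of -0.37 with transcript length, against 0.12 and 0.11 in replicates 1 and 2, and genes are not independent replicates. Of the 5 genes averaging 5 TPM or more that lay furthest below both others there, Lnpep, an aminopeptidase, was 31.4, 34.1 and 13.4 TPM, with a median transcript length of 12052 bases. Zbed6 was 64.0, 62.1 and 27.6 TPM, with 5007 bases. Ptpn4 was 15.2, 16.7 and 7.65 TPM, and the median over its annotated protein-coding transcripts was 445.5 bases. Partial transcripts were not left out of such medians, so that value need not be the length of its full mRNA. Tmem245 and Chek1 had 2643 and 2453 bases, nearer the median, and all 5 had a GC content of 40.3% to 47.8%, below the median of 51.0%. Stfa2l1 and Cstdc4, stefins of neutrophils, were highest there (13.3, 9.33 and 46.9 TPM, and 13.6, 10.3 and 42.8 TPM).

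**Figure D5:**
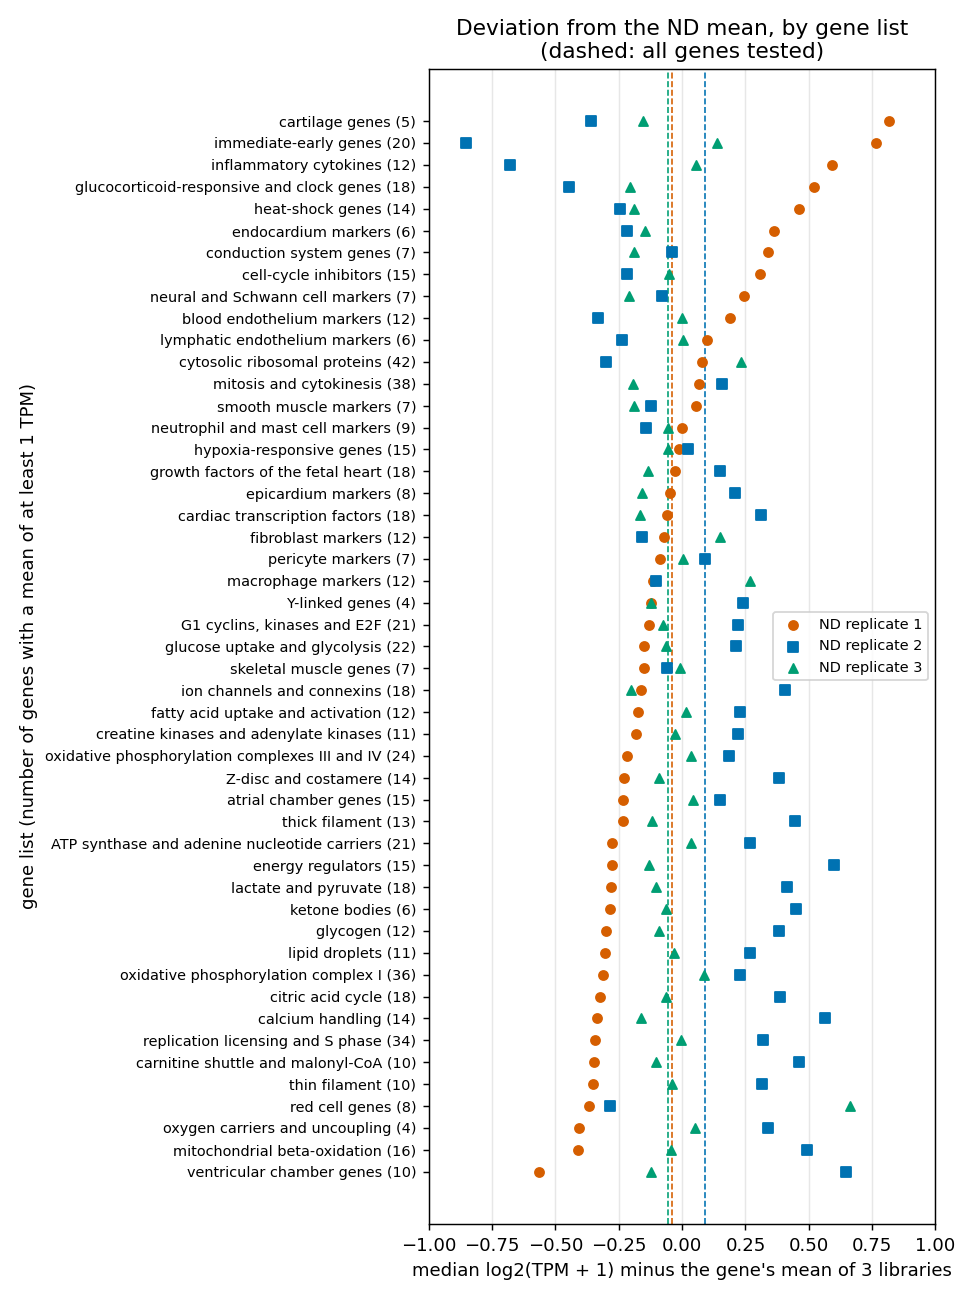
Median over the genes of each list of log2(TPM + 1) minus the mean of the 3 ND libraries (horizontal axis), for lists with at least 4 genes averaging 1 TPM or more (vertical axis, number of genes in brackets), with dashed lines for all genes. Immediate-early genes lie at 0.77, -0.85 and 0.14 in replicates 1, 2 and 3, ventricular genes at -0.57, 0.65 and -0.12, and red cell genes at -0.37, -0.28 and 0.66.

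The 5 steadiest genes among those averaging 100 TPM or more had log2 ranges of at most 0.02. Ddost, a subunit of the enzyme that adds sugars to new proteins, was 179, 180.1 and 181 TPM. Tcf25, Shc1, an adaptor of growth factor receptors, and Atp6v0c, a subunit of the proton pump of lysosomes, had log2 ranges of 0.01, 0.01 and 0.02. Col15a1, a collagen of capillary and muscle basement membrane, was 317, 312 and 313 TPM. Gapdh, often used as a reference, spanned a log2 range of 0.16.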

How the data were processed

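The authors deposited 1 table of TPM for 18738 genes, and its 3 normal-diet columns, named CON and read as the ND labels by name and number, were used here. Columns of the other 6 libraries were not used. The submitters' processing notes name RSEM 1.3.1 and GRCm38 with no role. For the aligner and the annotation, a name was not given in the sources used here. TPM keeps no read depth, so depth and counting error are unknown.

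With 1 group of 3 libraries no test was run: values are given per library, as mean ± SD, or as the log2 range of TPM + 1 among genes averaging 1 TPM or more, called at 2-fold. The 54 gene lists, which share some genes, and the 43 pairs were chosen with earlier results of these data known. Genes named were the 20 most abundant, both members of pairs, the highest and widest member of each list with further members by role, the 5 genes averaging 5 TPM or more furthest above or below in each library, and the 5 steadiest of at least 100 TPM; some are not described. H19, Ahsp, Myod1, Pax7 and Alb were not analysed here. Promoters and positions came from RefSeq (GRCm38.p6), 1 window a gene, the first listed. Transcript lengths and GC came from GENCODE M21 for 97.2% of genes, as the median over the protein-coding transcripts of a gene, with no filter for partial ones. Alternatives were other pseudocounts, filters, scalings, left-out libraries and, added after seeing the data, removal of a length and GC trend. Python 3.11.15, numpy 2.4.6, pandas 2.3.3 and matplotlib 3.10.9 were used. Some list members are not reported here by name.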

Additional observations from a re-analysis of the deposited data

How the results depend on the processing

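The number of genes that spanned 2-fold, 1675, fell to 691 with a pseudocount of 5 and was 2398 with 0.1. Leaving out 1 library gave 344 without replicate 1, 442 without replicate 2 and 1415 without replicate 3, so it rests on replicates 1 and 2; the range of 2 libraries is narrower than that of 3 by construction. It was 1249 for means of at least 5 TPM, 1783 with no filter, 1515 with median-ratio scaling, 1438 with quantile normalization and 1200 with a length and GC trend removed, the last chosen after seeing the data. Genes highest in replicate 2 fell from 49.3% to 36.8%, 36.5% and 37.1% under those 3 scalings. Shares of the first form moved by less than 1 SD in 37 of 43 pairs when taken from median TPM and in 38 of 43 with 1 TPM added. List sums did so in 54 of 54 lists under median-ratio scaling and under quantile normalization. That measure compares means over the 3 libraries, which such scalings hardly move, so it says little on stability. The order of libraries could change. The complex I sum was highest in replicate 2 in TPM but in replicate 3 with median-ratio scaling (10489 and 10492 in replicates 2 and 3). Leaving out 1 of 3 libraries cannot move a mean by 1 SD, so it says nothing on stability by that measure, but it turned which form was higher on average in 2 pairs: the Myl7 share of 47.5% became 54.1% without replicate 2, and the Myl4 share of 50.3% became 47.1% without replicate 1 and 47.8% without replicate 3. No paired analysis was possible because only 1 group was described and no test was run. TPM without counts gives no floor for genes listed at 0.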

Other observations

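Genes that respond to low oxygen had a median log2 range of 0.47, near the 0.51 of all genes. Of 15 such genes 1, Ddit4, spanned 2-fold, beside 12.2% of all genes. Ddit4, an inhibitor of mTOR signalling that stress also induces, was 239, 50.1 and 83.7 TPM in ND replicates 1, 2 and 3. The other 14 of 15 genes spanned less than 2-fold: Mif, a cytokine, was 218, 218 and 208 TPM, Vegfa, the main growth factor of vessels, 49.9, 84.8 and 57.0 TPM, and Bnip3, a mitophagy receptor, 45.4, 69.3 and 65.9 TPM. Car9, a carbonic anhydrase used as a marker of severe hypoxia, was 2.14, 2.02 and 2.36 TPM.

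Depp1, a gene of the fasting response, was among the 10 genes with the widest range, with 464, 52.5 and 158 TPM, the same order of libraries as Cdkn1a and Zbtb16. Sox10, the defining factor of Schwann cells, was low but measurable at 2.42, 1.38 and 1.95 TPM. Of lymphatic endothelium markers, Lyve1, a hyaluronan receptor, was 95.8, 80.1 and 89.8 TPM. Prox1, a defining factor of that endothelium, was 15.5, 32.0 and 14.1 TPM, and was the 1 of 6 markers highest in replicate 2. The 6 markers summed to 330, 266 and 311 TPM, lowest in that library. Which cells expressed Prox1 was not tested.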
